A study of Mus musculus with 6 samples.

Results

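Cells repair uracil, oxidised and methylated bases, and mispaired bases with 3 connected sets of enzymes, and 29 genes of these sets are described here in colonic mucosa of mice that differ in a folate enzyme. The genes were taken by name, and each was read from the row of the array table that carries its symbol alone. In all 25 of the 29 genes could be read that way, out of 23521 tested transcript clusters (the array's unit for a gene). Tdg, Apex1, Mpg and Alkbh1 stand on rows that carry several gene symbols, so no value is given for them. Of the 25 genes, 0 differed between the genotypes at an adjusted p under 0.05 and 0 at an unadjusted p under 0.05. Over all clusters the shares were 0% and 5.79%, so a count of 0 of 25 does not set these genes apart. The largest difference was 1.15-fold, and for each of the 25 genes the 95% interval lay inside 1.5-fold in either direction, as it did for 91.3% of all clusters.

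The 6 mice were males of the BALB/c strain, with 1 Affymetrix Mouse Gene 2.0 ST array each. Wild-type mice (WT, Mthfd1S+/+) numbered 4 and heterozygous mice (Mthfd1S+/-) numbered 2, with the line backcrossed for at least 10 generations. Both genotypes had received azoxymethane (AOM, a methylating colon carcinogen) at 6 mg/kg into the peritoneum and then 2 cycles of dextran sulfate sodium (DSS, which injures the colon lining) at 3%. The DSS cycles lasted 4 days and fell at weeks 1 and 4, and the mice were killed at 13 weeks. The labels give an age of 7 months, whereas the protocol puts the injection at 3 months. The tissue was colonic mucosa labelled as normal, taken next to a tumour. No mice without the carcinogen are analysed here, so the values say nothing of a response to it.

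Mthfd1 encodes a cytosolic enzyme of folate metabolism, and the heterozygous mice are described as deficient in its synthetase activity. Its own cluster read 7.96 and 7.63 in Mthfd1S+/- mice 1 and 2, beside 7.64, 7.63, 7.50 and 7.75 in the 4 WT mice. The groups overlap. How the allele affects the RNA is not stated, so this level is no check of the genotypes. The 6 arrays had medians of 5.48 to 5.53 on the log2 scale. Epithelial markers were high in every mouse, with Epcam at 11.32 to 11.47 and Cdh1 at 11.45 to 11.58. Smooth muscle markers were high as well, with Acta2 at 12.46 to 12.84 and Myh11 at 11.43 to 12.02. These levels thus do not show epithelium alone. In bulk tissue, fewer cells of a type and less RNA per cell cannot be told apart.

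Base excision repair begins with a DNA glycosylase that cuts a damaged or wrong base from the sugar. A nuclease then opens the strand at the empty site, a polymerase fills the gap and a ligase seals it. Folate supplies the methyl group of thymidylate, and when thymidylate is short, uracil can be built into DNA in its place. Methylated bases are either reversed directly, by Mgmt and the Alkbh enzymes, or cut out by a glycosylase. Mismatch repair removes mispaired bases after replication, and it also reads the mispairs that methylated guanine makes.

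Promoter sequences are shown for 5 of the genes. They cover uracil removal (Ung), removal of oxidised bases (Nthl1), direct reversal (Mgmt) and mismatch recognition (Msh3 and Msh6). No gene for the opening of empty sites, gap filling or strand breaks is shown. The sequences are RefSeq sequences of GRCm38.p6, from C57BL/6J mice rather than BALB/c, with 250 bases before and 50 after the start of the gene. Capitals mark matches on either strand to the E2F-type motifs TTTCCCGC, TTTGGCGC and TTTGCCGC, to the box CCAAT, and to the NRF1-type motif GCGCATGC.
Ung, chr5:114130185-114130484, plus strand: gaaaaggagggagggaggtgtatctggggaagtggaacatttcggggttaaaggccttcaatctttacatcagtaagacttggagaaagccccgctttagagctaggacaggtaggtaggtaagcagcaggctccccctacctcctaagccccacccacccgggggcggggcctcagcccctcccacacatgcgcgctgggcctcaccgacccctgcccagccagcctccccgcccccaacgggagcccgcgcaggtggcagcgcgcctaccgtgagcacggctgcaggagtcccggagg
Nthl1, chr17:24632432-24632731, plus strand: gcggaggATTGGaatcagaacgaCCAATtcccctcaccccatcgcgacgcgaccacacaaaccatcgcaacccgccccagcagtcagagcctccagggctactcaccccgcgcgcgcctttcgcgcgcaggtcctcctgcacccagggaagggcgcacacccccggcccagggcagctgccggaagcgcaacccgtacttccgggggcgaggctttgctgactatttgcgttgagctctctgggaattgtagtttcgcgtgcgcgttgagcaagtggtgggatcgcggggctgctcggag
Mgmt, chr7:136894336-136894635, plus strand: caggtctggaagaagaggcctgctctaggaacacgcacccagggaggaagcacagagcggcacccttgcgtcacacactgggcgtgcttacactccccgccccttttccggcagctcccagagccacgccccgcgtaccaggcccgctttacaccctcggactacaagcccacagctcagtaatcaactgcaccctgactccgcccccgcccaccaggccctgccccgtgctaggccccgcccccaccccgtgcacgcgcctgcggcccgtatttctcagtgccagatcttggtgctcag
Msh3, chr13:92354954-92355253, minus strand: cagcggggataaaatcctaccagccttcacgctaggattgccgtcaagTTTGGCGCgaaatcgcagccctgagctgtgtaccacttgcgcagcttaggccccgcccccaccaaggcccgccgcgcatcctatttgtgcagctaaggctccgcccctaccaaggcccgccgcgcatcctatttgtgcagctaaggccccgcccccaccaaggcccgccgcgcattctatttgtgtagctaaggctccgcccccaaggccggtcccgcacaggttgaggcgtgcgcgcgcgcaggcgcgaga
Msh6, chr17:87974800-87975099, plus strand: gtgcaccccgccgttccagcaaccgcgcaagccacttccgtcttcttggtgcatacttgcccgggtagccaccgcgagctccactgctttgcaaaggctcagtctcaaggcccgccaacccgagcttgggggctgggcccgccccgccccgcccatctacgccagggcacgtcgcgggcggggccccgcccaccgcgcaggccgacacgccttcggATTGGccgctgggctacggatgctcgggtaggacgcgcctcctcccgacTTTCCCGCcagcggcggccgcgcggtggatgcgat

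Promoters were at hand for 25 of the 29 genes, with 29 start sites in all, of which Mgmt, Mutyh, Aptx and Mlh3 have several. These windows were rich in CpG: the median was 20 CpG in 300 bases, against 7 over all 32851 promoters of the table. A ratio of observed to expected CpG above 0.6 was found in 24 of the 29 windows (82.8%), against 35.8% of all. The Mgmt window shown has 20 CpG and no match to these motifs, and neither has that of Ung with 16 CpG. An E2F-type match was found in Msh3 and Msh6 alone (6.90% of the windows, against 1.99% of all). In Msh6 it begins 15 bases after the start site, and in Msh3 it lies 202 to 195 bases before it. The CCAAT box was found in 16 windows (55.2%, against 37.4%), among them that of Nthl1, which holds it at 2 places. The NRF1-type motif was found in 3 windows, those of Parp2 and of both Mlh3 starts (10.3%, against 2.71%). The Mlh3 starts are 8 bases apart and share 1 site, and by gene the count was 2 of 25 (8%, against 3.05% of all genes). By gene the CCAAT box was in 14 of 25 (56%, against 41.1%). The p53 decamer was found in Neil1 and Neil3 (6.90% of the windows, against 8.36%). A second gene starts on the other strand within 1000 bases upstream in 8 windows (27.6%, against 11.4%). For Nthl1 that gene is Tsc2, which starts 55 bases away. Ung and Alkbh2 are neighbours on chromosome 5 and start 2217 bases apart, on opposite strands. A match is a run of letters and does not show that a factor binds there.

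**Figure D1:**
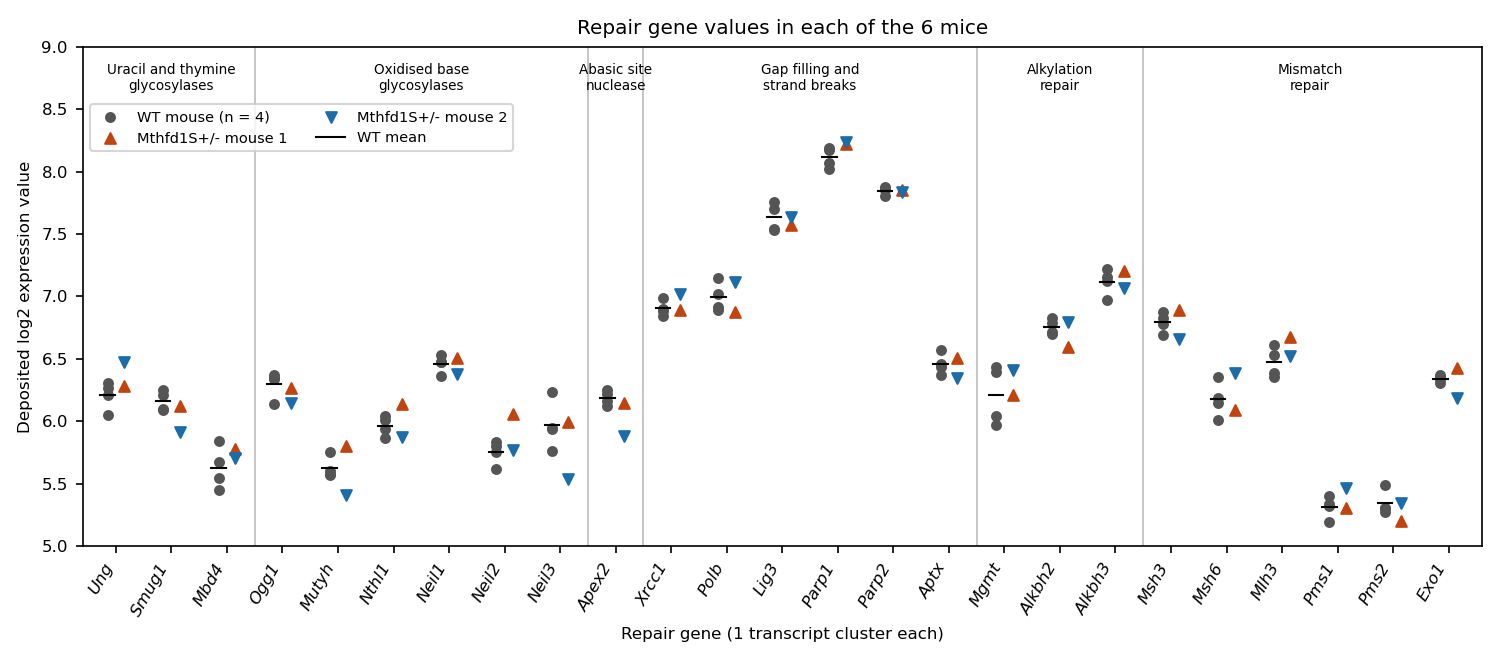
Deposited log2 value (vertical axis) of the 25 measured repair genes (horizontal axis, by role) in each mouse: grey circles are the 4 WT mice, with their mean as a line, and triangles are the 2 Mthfd1S+/- mice. The groups overlap in 24 genes, and only in Parp1 do both Mthfd1S+/- mice lie above all WT mice. Levels of different genes come from different probes and are not comparable.

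The glycosylases that act on uracil and on thymine in mispairs were measured in 3 of 4 genes. Ung, the main uracil glycosylase of replicating cells, read 6.30, 6.05, 6.27 and 6.21 in the 4 WT mice, by number, and 6.29 and 6.47 in Mthfd1S+/- mice 1 and 2. The second Mthfd1S+/- mouse was above every WT mouse and the first was inside their range. The log2 difference, Mthfd1S+/- minus WT, was 0.17 ± 0.10 (SE), with a 95% interval of -0.07 to 0.41 and an adjusted p of 0.870 in limma. Smug1, a second uracil glycosylase, read 6.21, 6.09, 6.10 and 6.25 in WT and 6.12 and 5.92 in Mthfd1S+/- mucosa. Here the second Mthfd1S+/- mouse lay below all WT mice, so the values of the 2 uracil glycosylases parted in the same animal. The difference of Smug1 was -0.15 ± 0.10 (interval -0.37 to 0.08). Mbd4, which removes thymine or uracil opposite guanine at CpG sites, read 5.45, 5.84, 5.67 and 5.55 in WT and 5.78 and 5.70 in Mthfd1S+/- mucosa. Both Mthfd1S+/- mice were inside the WT range, and the difference was 0.11 ± 0.12 (interval -0.16 to 0.38).

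All 6 glycosylases of oxidised bases were measured. Ogg1, which removes oxidised guanine, read 6.37, 6.34, 6.34 and 6.14 in WT mice and 6.26 and 6.14 in Mthfd1S+/- mice, a difference of -0.09 ± 0.10. WT mouse 4 and the second Mthfd1S+/- mouse were both low for Ogg1. Mutyh, which removes adenine placed opposite oxidised guanine, read 5.60, 5.58, 5.75 and 5.57 in WT and 5.80 and 5.41 in Mthfd1S+/- mice. The 2 Mthfd1S+/- mice thus lay beyond opposite ends of the WT range for Mutyh, and the difference between genotypes was -0.02 ± 0.12. Nthl1, which removes oxidised pyrimidines, read 6.04, 5.86, 6.01 and 5.94 in WT and 6.14 and 5.88 in Mthfd1S+/- mice, with a difference of 0.04 ± 0.10. Neil1, which also acts on oxidised pyrimidines, had values of 6.36 to 6.53 in WT and of 6.51 and 6.38 in Mthfd1S+/- mice, all inside the WT range, with a difference of -0.02 ± 0.09. Neil2 read 5.62, 5.76, 5.80 and 5.84 in WT and 6.06 and 5.77 in Mthfd1S+/- mice. The first Mthfd1S+/- mouse stood above all others for Neil2, and the difference was 0.16 ± 0.11 (interval -0.09 to 0.42). Without the second Mthfd1S+/- mouse it was 0.31 (unadjusted p 0.0379 in limma, where 5.74% of all clusters had a p under 0.05), and without the first 0.02. Neil3, a glycosylase found mainly in dividing cells, read 5.94, 6.24, 5.76 and 5.95 in WT and 5.99 and 5.54 in Mthfd1S+/- mice. It had the widest interval of the 25 genes, -0.57 to 0.16 around a difference of -0.21 ± 0.16, and the second Mthfd1S+/- mouse was its lowest. Without the first Mthfd1S+/- mouse the difference of Neil3 was -0.43 (unadjusted p 0.0415 in limma, where 8.21% of all clusters had a p under 0.05), and without the second 0.02. With the mean of smooth muscle markers as a covariate the difference of Neil3 was 0.02. That mean was highest in the second Mthfd1S+/- mouse (0.39). Adjusting for it and leaving that mouse out thus cannot be told apart here.

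Apex1, the main nuclease that opens empty sites, had no value. Its X-linked relative Apex2 was measured, and its level does not stand for that of Apex1. Apex2 read 6.22, 6.25, 6.16 and 6.12 in WT mice and 6.15 and 5.88 in Mthfd1S+/- mice. The first Mthfd1S+/- mouse was among the WT mice and the second was below all of them. The difference of -0.17 ± 0.10 (interval -0.40 to 0.05) had the smallest unadjusted p of the 25 genes, 0.120, with an adjusted p of 0.869. Without the first Mthfd1S+/- mouse it was -0.31 (unadjusted p 0.0248 in limma), and without the second -0.04. With the smooth muscle covariate, which was highest in that second mouse, the difference of Apex2 was -0.05.

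Gap filling and the repair of single-strand breaks were read in 6 of 6 genes. Parp1, which senses strand breaks and marks them with ADP-ribose chains, read 8.19, 8.07, 8.17 and 8.03 in WT and 8.22 and 8.24 in Mthfd1S+/- mice. It was the 1 gene of 25 whose groups did not overlap, where 14.0% of all clusters had no overlap. Its difference was 0.12 ± 0.09 (interval -0.08 to 0.31, adjusted p 0.895). Parp2, its smaller relative, had the smallest SD over WT mice of the 6, 0.032, with values of 7.80 to 7.88 in WT and 7.86 and 7.84 in Mthfd1S+/- mice. Xrcc1, the scaffold that holds the repair enzymes at a break, read 6.84, 6.90, 6.99 and 6.89 in WT and 6.89 and 7.02 in Mthfd1S+/- mice, a difference of 0.05 ± 0.09. Polb, the gap-filling polymerase, read 7.15, 7.02, 6.89 and 6.92 in WT and 6.88 and 7.11 in Mthfd1S+/- mice. For Polb the 2 Mthfd1S+/- mice were 0.24 apart, and the genotype difference was 0.001 ± 0.11. Xrcc1 and Polb were both higher in the second than in the first Mthfd1S+/- mouse. Lig3, the ligase partner of Xrcc1, had values of 7.53 to 7.76 in WT and of 7.57 and 7.63 in Mthfd1S+/- mice. Aptx, which clears failed ligations, had 6.37 to 6.57 in WT and 6.51 and 6.34 in Mthfd1S+/- mice. The difference was -0.03 for each of Lig3 and Aptx, with an SE of 0.10 and 0.09.

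Alkylation repair was measured in 3 of 5 genes. Mgmt takes methyl and larger alkyl groups off guanine in a reaction that uses up the protein, and its product limits damage by methylating carcinogens such as AOM. Mgmt read 6.04, 5.97, 6.40 and 6.43 in the 4 WT mice, by number, and 6.21 and 6.41 in Mthfd1S+/- mice 1 and 2. WT mice 1 and 2 were low and WT mice 3 and 4 high, and this WT range of 0.46 held both Mthfd1S+/- mice. The SD over WT mice, 0.24, was the largest of the 25 genes and exceeded that of 90.6% of all clusters. The genotype difference was 0.10 ± 0.15 (interval -0.25 to 0.45). It was -0.11 with the smooth muscle covariate, -0.003 without the second Mthfd1S+/- mouse and 0.20 without the first, so its direction was not settled. Alkbh2, which reverses methylation of adenine and cytosine in double-stranded DNA, read 6.78, 6.72, 6.70 and 6.82 in WT and 6.59 and 6.79 in Mthfd1S+/- mice. The first Mthfd1S+/- mouse was below all WT mice for Alkbh2, while at its neighbour Ung the second stood above them. Alkbh3, which prefers single-stranded DNA, had 6.97 to 7.22 in WT and 7.20 and 7.07 in Mthfd1S+/- mice. The differences were -0.06 ± 0.09 for Alkbh2 and 0.02 ± 0.10 for Alkbh3.

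Mismatch repair was read in 6 of 6 genes on the list. Msh6, which pairs with a common partner to find base mispairs and small loops, read 6.35, 6.01, 6.18 and 6.15 in WT and 6.09 and 6.39 in Mthfd1S+/- mice. Msh3, whose complex finds larger loops, read 6.88, 6.78, 6.69 and 6.83 in WT and 6.89 and 6.66 in Mthfd1S+/- mice. The 2 Mthfd1S+/- mice parted in opposite order for these 2 genes, by 0.30 for Msh6 and 0.23 for Msh3, and the genotype differences were 0.06 ± 0.12 and -0.02 ± 0.10. Among the MutL relatives, which act after recognition, Mlh3 read 6.61, 6.36, 6.39 and 6.53 in WT and 6.67 and 6.52 in Mthfd1S+/- mice, a difference of 0.12 ± 0.10. Pms2, the nicking subunit of the main complex, had 5.27 to 5.49 in WT and 5.20 and 5.34 in Mthfd1S+/- mice. Pms1 had 5.19 to 5.40 in WT and 5.30 and 5.46 in Mthfd1S+/- mice. The differences were -0.07 ± 0.10 for Pms2 and 0.07 ± 0.10 for Pms1. Exo1, the nuclease that removes the mispaired strand, read 6.35, 6.37, 6.34 and 6.31 in WT and 6.43 and 6.18 in Mthfd1S+/- mice. The WT mice spanned 0.06 for Exo1, and 2.14% of all clusters had a smaller SD over WT mice. The 2 Mthfd1S+/- mice lay on either side of that span.

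Over the 25 genes, 12 had a positive and 13 a negative difference. Their median was -0.0020, where that of all 23521 clusters was 0.012 with 54.0% of clusters positive. The median was positive in 7 of 16 other settings, up to 0.025 with each array centred on its own median. Its sign thus carries no direction. Settings that change only the variance estimate or the rows tested keep the value of -0.0020 by construction. No gene passed at an adjusted p under 0.05 in limma (0% of all clusters did). At an unadjusted p under 0.05 the count was 0 of 25, against 5.79% of all clusters. The median SE was 0.098 for the repair genes and 0.106 for all clusters. By role, the median differences were 0.11 for uracil and thymine glycosylases (3 genes), -0.02 for glycosylases of oxidised bases (6 genes) and -0.17 for Apex2 alone. They were -0.0003 for gap filling and strand breaks (6 genes), 0.02 for alkylation repair (3 genes) and 0.02 for mismatch repair (6 genes). The outermost bounds of the 25 intervals were -0.57 and 0.45, or 1.49-fold lower and 1.36-fold higher. These intervals are not adjusted for the number of genes. Over all clusters, 91.3% had an interval inside 1.5-fold.

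**Figure D2:**
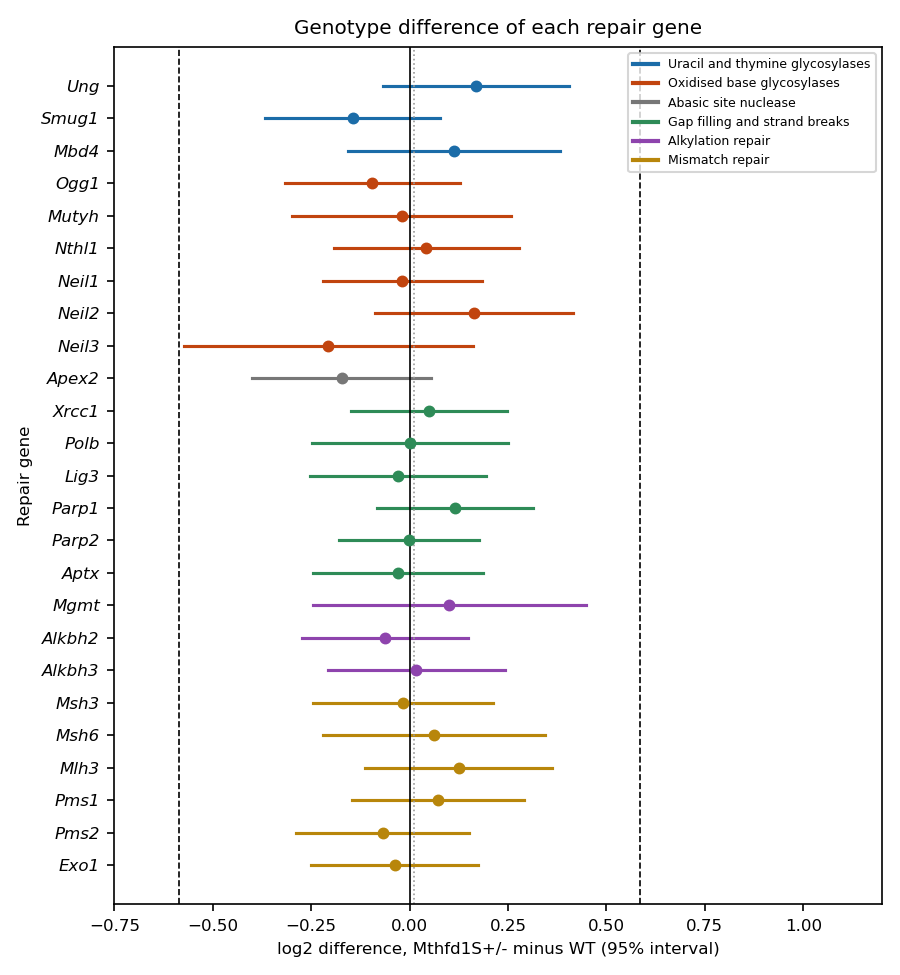
Log2 difference of each repair gene, Mthfd1S+/- minus WT (horizontal axis, point), with its 95% interval (line) and the role in colour. Dashed lines mark 1.5-fold and the dotted line the median of all clusters, 0.012. All 25 intervals cross 0 and lie between the dashed lines.

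The 2 Mthfd1S+/- mice differed more from each other than the genotypes did in most repair genes. The gap between them was larger than the genotype difference in 23 of 25 repair genes, against 65.9% of all clusters. The genotype difference is between means of 2 and 4 mice, whereas the gap is between single mice and so varies more. Its median size was 0.19 for the repair genes and 0.13 for all clusters, where the median size of the genotype difference was 0.06 and 0.08. The 2 mice lay on opposite sides of the WT mean in 17 genes (68%), against 43.4% of all clusters. They lay beyond opposite ends of the WT range in Mutyh, Msh3 and Exo1 (12%, against 7.77%). Both stayed inside the WT range in 7 genes, against 36.1% of all clusters. These shares were noticed in the data and carry no test, since genes of the same mice are not independent.

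**Figure D3:**
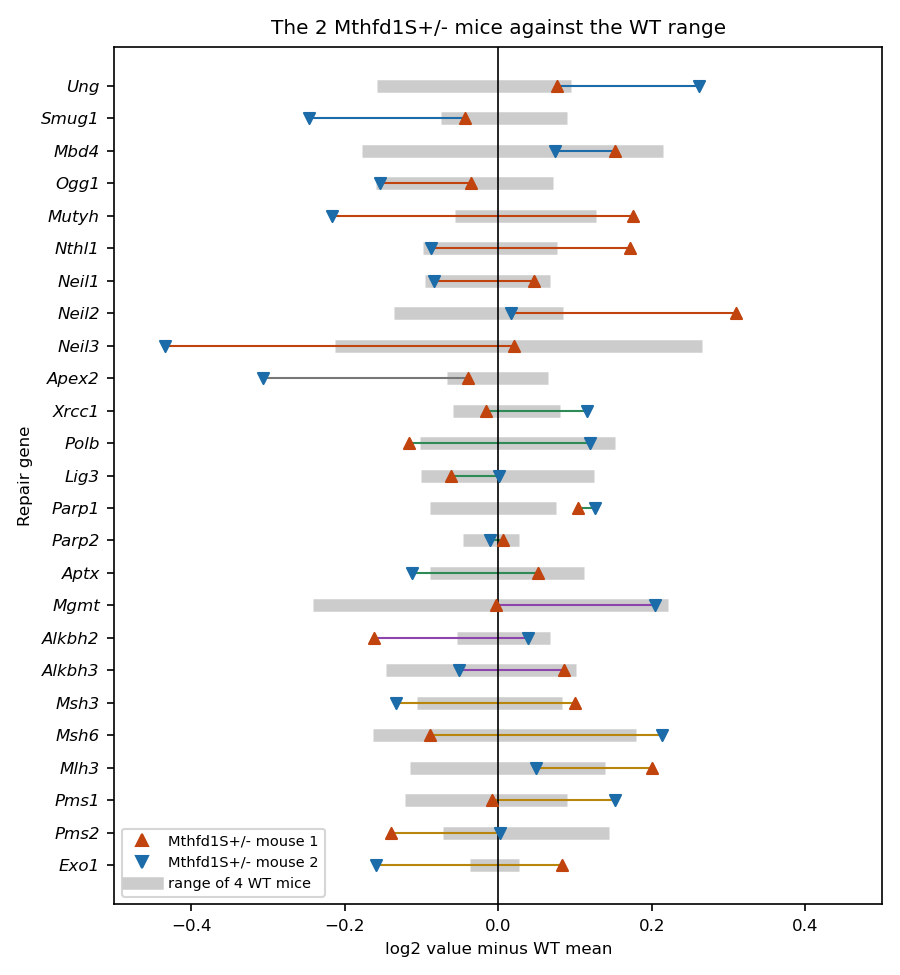
Value of each repair gene in Mthfd1S+/- mouse 1 (upward triangles) and mouse 2 (downward triangles) as log2 distance from the WT mean (horizontal axis), with the range of the 4 WT mice as a grey bar. The 6 glycosylases of oxidised bases, from Ogg1 to Neil3, have mouse 1 to the right of mouse 2 throughout, and Neil3 has the widest gap, 0.45.

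The gap ran one way among the glycosylases of oxidised bases. All 6 glycosylases of oxidised bases were higher in the first than in the second Mthfd1S+/- mouse, by 0.12 for Ogg1 to 0.45 for Neil3, where 52.9% of all clusters were. With each gene centred over the 6 mice, the mean of these 6 genes was 0.011, 0.038, 0.019 and -0.038 in the 4 WT mice, by number, and 0.12 and -0.15 in Mthfd1S+/- mice 1 and 2. All 4 WT mice thus lay between the 2 Mthfd1S+/- mice. This was not particular to the group. The mean of all 25 repair genes was 0.033 and -0.027 in Mthfd1S+/- mice 1 and 2, and -0.012 to 0.020 in WT mice. Among related genes described below, those shared with replication had 0.093 and -0.081, and -0.042 to 0.063 in WT mice. Those that keep uracil out of DNA had 0.156 and -0.157, and -0.079 to 0.119 in WT mice. In mismatch repair the gaps ran both ways, with 3 of 6 genes higher in the first mouse and gaps from -0.30 in Msh6 to 0.24 in Exo1. The group's means, 0.017 and 0.013 in the 2 Mthfd1S+/- mice and -0.039 to 0.056 in WT mice, are near each other for that reason. In gap filling and strand break repair 2 of 6 genes were higher in the first mouse, and the means were -0.011 and 0.034, beside -0.030 to 0.037 in WT mice.

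Enzymes that share the later steps were read from a list of 44 related genes, of which 41 were measured. Of these 17 had a positive and 24 a negative difference, and the median was -0.03. At an unadjusted p under 0.05 the count was 0 of 41, against 5.79% of all clusters. Tdp1, which frees DNA ends from trapped topoisomerase, came nearest at 0.20 ± 0.09 (unadjusted p 0.0546, adjusted p 0.837). It read 7.24, 7.25, 7.15 and 7.29 in WT and 7.51 and 7.35 in Mthfd1S+/- mice, and the groups did not overlap. That held for 6 of the 41 related genes, where 14.0% of all clusters had no overlap, so it does not set Tdp1 apart. The list of end-processing enzymes to which Tdp1 belongs (7 genes) had a median of -0.04. Among polymerases, clamp loaders and ligases shared with replication (18 genes) the median was -0.01, and Rfc1, a clamp loader subunit, had 0.18 ± 0.13 and Pold1, the catalytic subunit of a replicative polymerase, 0.14 ± 0.10. Msh5, a MutS relative of meiosis, had -0.16 ± 0.08 (unadjusted p 0.0917). The list of the other Alkbh family genes and of ASCC genes (9 genes) had a median of -0.02.

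Of 5 measured genes that keep uracil out of DNA, 4 were higher in the first Mthfd1S+/- mouse, the exception being Dctd, which makes the precursor of thymidylate. Dut, which destroys the uracil nucleotide before it can be used, read 7.57 in the first and 7.26 in the second, and 7.30 to 7.52 in WT mice. Tyms, which makes thymidylate with a methyl group from folate, read 7.48 and 7.03, and 7.06 to 7.48 in WT mice. Shmt1, which supplies folate-borne carbon for thymidylate, read 8.09 and 7.65, outside the WT range of 7.85 to 8.01 on both sides. The genotype differences were 0.01 ± 0.12 for Dut, -0.04 ± 0.15 for Tyms and -0.10 ± 0.13 for Shmt1. In the replication list 15 of 18 genes were higher in the first Mthfd1S+/- mouse, and in the proliferation list 17 of 19.

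Marker lists of other cell types differed between mice as well. Smooth muscle markers had means of -0.17, -0.25, -0.02 and 0.11 in the 4 WT mice, by number, and of -0.06 and 0.39 in the Mthfd1S+/- mice, so the second Mthfd1S+/- mouse was the highest. All 10 markers had a positive genotype difference (median 0.23), with 1 at an unadjusted p under 0.05 (Casq2, 0.59 ± 0.23). Over all clusters 54.0% were higher in Mthfd1S+/- mucosa, 3.36% were higher with such a p and 2.44% lower with such a p. Proliferation genes had means of 0.15, 0.26, -0.20 and -0.27 in WT and of 0.15 and -0.09 in Mthfd1S+/- mice. Epithelial markers had 0.0012, 0.027, 0.061 and 0.0048 in WT and -0.0052 and -0.088 in Mthfd1S+/- mice. They were lower in Mthfd1S+/- mucosa in 11 of 13 (median -0.07), with 0 at an unadjusted p under 0.05. Enteric neuron and glia markers were higher in Mthfd1S+/- mucosa in 8 of 8 (3 at an unadjusted p under 0.05). Fibroblast markers were higher in 9 of 9 (2). All markers of these lists were higher in the second than in the first Mthfd1S+/- mouse. The first mouse's means, 0.041 and 0.067, lay inside the WT means of -0.30 to 0.11 and -0.32 to 0.10. The second mouse's means were 0.33 and 0.26. Adipocyte markers were lower in 6 of 6 (2), with means of -0.31 to 1.19 in WT and -0.60 and -0.50 in Mthfd1S+/- mice. B and plasma cell markers were lower in 5 of 7 (2). Goblet cell markers were lower in 6 of 8 (1), and no T cell, macrophage or endothelial marker had an unadjusted p under 0.05 (7, 8 and 6 measured). The mice low in Mgmt among WT, 1 and 2, were those high in proliferation genes and low in smooth muscle markers. The part of these markers in the gap between the Mthfd1S+/- mice was not tested. With the smooth muscle mean or the proliferation mean as a covariate, 0 of the 25 repair genes had an unadjusted p under 0.05 for genotype, where 4.96% and 8.12% of all clusters had. The smooth muscle covariate moved 6 of the 25 values by more than the SD over WT mice, among them Neil3 and Apex2 as given above.

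**Figure D4:**
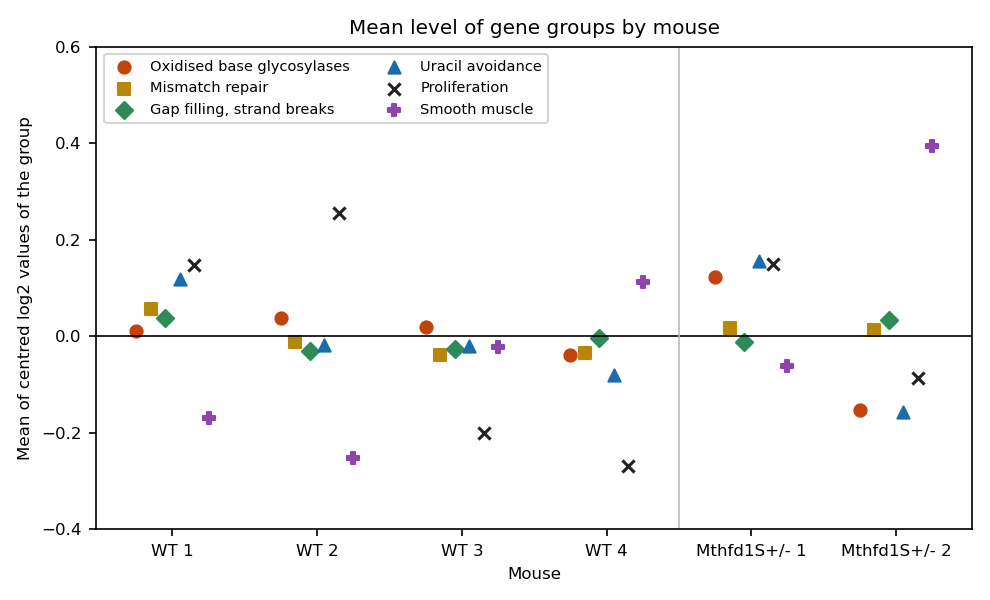
Mean of centred log2 values (vertical axis) of 4 repair or nucleotide groups and of 2 marker lists in each mouse (horizontal axis). Glycosylases of oxidised bases and uracil avoidance genes are above 0.1 in Mthfd1S+/- mouse 1 and below -0.1 in mouse 2, where smooth muscle is at 0.39, while the mean of mismatch repair, whose genes part both ways, is between -0.04 and 0.06 in all mice.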

How the data were processed

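RNA of 6 mice was measured on 6 arrays. Deposited values are on a log2 scale, as their range of 1.06 to 13.5 shows. Per the submitters' processing notes, the authors used Affymetrix Expression Console. Version, summary method and build: not given in the sources used here. Any difference removed by normalization cannot be seen.

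Of 41345 rows, 23521 carried exactly 1 gene symbol and were tested; 1814 had several and 16010 none. The test was limma's moderated one (two-sided, genotype only; version 3.58.1 under R 4.3.3), with Benjamini-Hochberg adjustment over all tested clusters at 0.05. The steps were tested on simulated data. Each array is labelled a biological replicate from its own mouse. Precision is limited by having 6 arrays.

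The repair genes, the related and marker lists and the naming rule were chosen with earlier results of these data known. All repair genes are named, and up to 4 genes of each other list by smallest p. Epcam, Cdh1, Acta2 and Myh11 are defining markers. Each measured repair gene had 1 cluster of its symbol alone, so the choice of another such cluster per gene had no alternative. Apex2 also stands on 1 cluster with several symbols, which was not read. Alternatives were 16 settings of samples, normalization, rows, covariates and variance. Motifs were fixed in letters and searched on both strands of RefSeq promoters.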

Additional observations from a re-analysis of the deposited data

Results flagged for a closer look

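Among the 25 repair genes, 1 had a WT mouse far from the other 3: Ogg1 read 6.14 in WT mouse 4, against 6.34 to 6.37 in the others. The gap to the nearest was 0.874 of the whole range, above the bound of 0.829 for 4 samples. Chance alone flags about 1 in 20 groups, so 1 of 25 is near that rate.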

How the results depend on the processing

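No cluster passed the adjusted threshold in any of the 16 settings. The count of repair genes at an unadjusted p under 0.05 was 0 in all settings but 3, and leaving out mice in turn gave 0 to 2. Without the first Mthfd1S+/- mouse they were Apex2 (-0.31) and Neil3 (-0.43, p 0.0415), and without the second Neil2 (0.31, p 0.0379), where 8.21% and 5.74% of all clusters had such a p; a lone Mthfd1S+/- mouse is then assumed to vary like the WT mice. With the replicate number as a block the count was 1 (Mgmt, 0.30, p 0.0454) and 2331 clusters (9.91%) had an unadjusted p under 0.05, against 1363. The numbers are not shown to pair the mice. Deviations from the genotype mean correlated at 0.117 between the mice numbered 1 and at -0.044 between those numbered 2. The deviations of the 2 Mthfd1S+/- mice mirror each other exactly. The 2 correlations are therefore not separate pairs and cannot decide whether the mice are paired. With all rows tested, 2600 clusters (6.29%) had such a p. The median of the repair genes ran from -0.013 to 0.021 when mice were left out, and was 0.025 with each array centred on its median and 0.016 with the smooth muscle covariate. Single gene values moved by more than the WT SD in 12 genes without the first Mthfd1S+/- mouse and in the same 12 without the second. These are 1 result, since leaving out either mouse moves a value equally far in opposite directions. With the smooth muscle covariate 6 genes moved so far, and the cause was not tested. The 2 Mthfd1S+/- mice limit the precision to the intervals given.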
